A study of Caenorhabditis elegans with 9 samples.

Results

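LET-418 and MEP-1 are partners in one chromatin complex, and the comparison described here set *C. elegans* L1 larvae from the *mep-1(RNAi)* treatment directly against those from the *let-418(RNAi)* treatment. Of the 9 arrays of the series, 6 were compared: the 3 labelled *mep-1(RNAi)* and the 3 labelled *let-418(RNAi)*, paired within batches 1 to 3. The 3 *gfp(RNAi)* control arrays entered no difference and appear only as context. All larvae were wild type (N2, Bristol strain). Their parents were placed at the L4 stage on HT115 bacteria expressing *let-418* dsRNA (insert of 440 bp) or *mep-1* dsRNA (insert of 900 bp), or the *gfp(RNAi)* control. The whole course ran at 25 °C, and the hatched, synchronized larvae were fed the same bacteria for 3 h before collection. The sources give the animals as 3 independent batches, whole larvae were pooled by the pellet, and neither protein was measured in these samples.

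LET-418 is a Mi-2 ATPase, an enzyme that moves nucleosomes, and MEP-1 is a zinc-finger protein. Together with the histone deacetylase HDA-1 they form the MEC complex, while LET-418 is also found in NuRD, a complex of Mi-2, deacetylases and histone-binding proteins that does not contain MEP-1. Both proteins are known for keeping germline genes silent in somatic cells of the larva, and larvae lacking either arrest in L1. A direct comparison of the 2 treatments asks whether they left different transcriptomes.

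Total RNA was measured on a GeneChip whose 22548 probe sets each report 1 linear signal per array. The median signal before scaling was 146, 107 and 87.3 on *let-418(RNAi)*-labelled arrays and 109, 66.7 and 117 on those labelled *mep-1(RNAi)*. Each array was multiplied by a factor (0.731 to 1.52) to an equal mean after trimming 2% at each end, and differences were taken on the log2 scale as *mep-1(RNAi)* minus *let-418(RNAi)*, so that -1 is a signal 2-fold lower on *mep-1(RNAi)*-labelled arrays. To be called, a probe set needed a difference of at least 2-fold and an adjusted p under 0.05 from limma, fitted over all probe sets with the batches paired. Where several probe sets named a gene, the brightest stood for it, and 17118 genes were measured. "Bright" below means a mean log2 signal of the 6 arrays that corresponds to at least 100. As a check on stage, the scaled signals of the 5 vitellogenin genes, which adult intestine expresses, summed to 124 to 200 on the 6 arrays.

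The signals of the 2 targeted genes did not follow the labels in a simple way. *let-418* reached signals of 1569, 1455 and 2239 on *let-418(RNAi)*-labelled arrays (mean 1755 ± 424, SD, n = 3). On *mep-1(RNAi)*-labelled arrays it had 842, 1121 and 1026 (996 ± 142, SD, n = 3). All 3 values were thus higher on the arrays labelled for its own dsRNA, and the groups did not overlap. The difference was -0.80 (standard error 0.18, adjusted p = 0.61 from limma), and the *gfp(RNAi)* arrays had a mean of 900. *mep-1* gave 1498, 1672 and 1503 on *let-418(RNAi)*-labelled arrays and 1478, 1588 and 1554 on those labelled *mep-1(RNAi)*, a difference of -0.02 (standard error 0.14, limma adjusted p = 0.99). Its second probe set had a difference of 0.17. Where the dsRNA inserts lie relative to the probes is not stated in the labels or methods, so neither signal shows how far the mRNA was depleted, and arrays are named by their labels throughout.

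On their brightest probe sets, the other listed genes of the complexes and their homologues lay close to equality. The list is not of subunits alone, since it also holds *rba-1*, *hda-3*, *egl-27* and *hda-2*. The study sets these apart as homologues outside NuRD, though it does not exclude that they join it in certain tissues or stages. Of the 12 listed genes 11 were measured. The 10 other than *let-418* had differences from -0.27 to 0.23 with adjusted p-values of 0.82 or more from limma. At the low end was *chd-3*, the second Mi-2 gene, with 614, 818 and 854 on *let-418(RNAi)*-labelled arrays and 565, 655 and 662 on those labelled *mep-1(RNAi)*. At the high end was *hda-1*, the deacetylase, with 728, 806 and 890 against 762, 1104 and 995. *lin-53*, a histone-binding subunit, had 0.22 on its brightest probe set and -0.09 on the other. In *chd-3* and *hda-1* the 2 groups overlapped. In *lin-53* they did not on the brightest probe set (799, 884 and 856 against 1030, 1037 and 887), but they did on the other. The further probe sets of *egl-27*, a gene related to mammalian MTA genes, had -0.13, 0.39 and -0.86, and that of *hda-1* had 1.49. Their adjusted p-values were 0.81 or more from limma. The one at 0.39 was bright, with 139, 176 and 136 against 180, 195 and 216, while those at -0.86 and 1.49 had signals under 19 on all 6 arrays.

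Over the whole array, larvae given different dsRNA were about as far apart as larvae given the same dsRNA in another batch. The distance between 2 arrays was taken as the median absolute log2 difference of all probe sets. Within a batch, the arrays of the 2 treatments were 0.298, 0.357 and 0.351 apart. Arrays that shared the label *let-418(RNAi)* but not the batch were 0.268 to 0.341 apart (mean 0.315 over 3 pairs), and arrays that shared the label *mep-1(RNAi)* were 0.322 to 0.369 apart (mean 0.352 over 3 pairs). Arrays that shared neither were 0.266 to 0.413 apart (mean 0.345 over 6 pairs), so the 4 kinds of pair overlapped in range. Among the 11440 bright probe sets the distances were shorter, with means of 0.234 within a batch, 0.218 within *let-418(RNAi)* and 0.246 within *mep-1(RNAi)*.

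**Figure D1:**
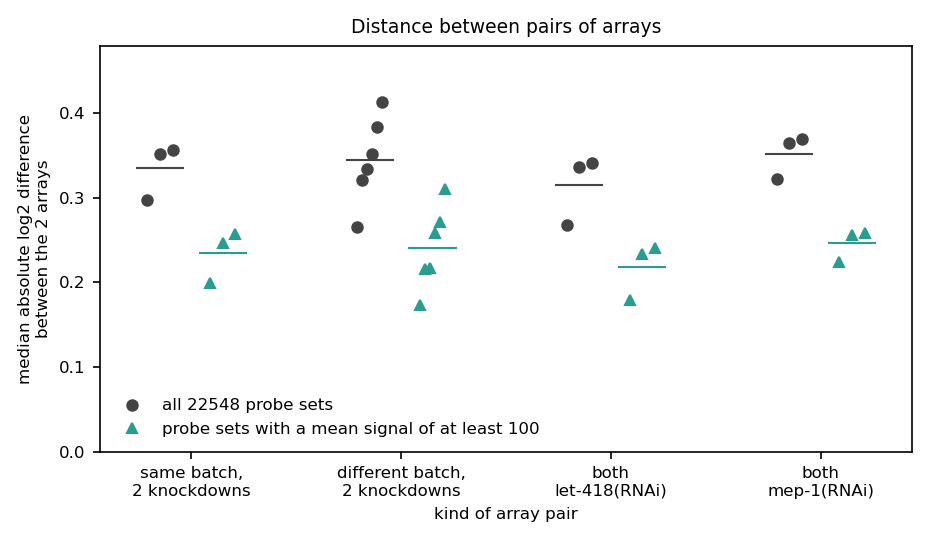
Median absolute log2 difference between 2 arrays (vertical axis, log2 units) for 4 kinds of array pair, over all 22548 probe sets (circles) and over those with a mean signal of at least 100 (triangles), with horizontal lines for the means. Each point is 1 pair, and pairs of different treatments (means 0.335 and 0.345) lie in the same range as pairs of the same treatment (means 0.315 and 0.352).

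The median difference of all probe sets was 0.03, with 0.05, 0.01 and 0.04 in batches 1, 2 and 3. In single batches 13.5%, 15.9% and 15.7% of probe sets were at least 2-fold apart, but among bright ones only 0.962%, 2.70% and 2.60%. The large differences of one batch were mostly not those of another. Across all probe sets the differences of batches 1 and 2 correlated at r = 0.09 (Spearman's rho 0.15), those of batches 1 and 3 at r = 0.04 (rho 0.05) and those of batches 2 and 3 at r = -0.04 (rho -0.08), as a description over 22548 probe sets that share arrays and depth of signal. Among the bright probe sets these were 0.35, 0.11 and -0.21. Batches 1 and 2 thus resembled each other, and batches 2 and 3 ran against each other. In all, 6284 probe sets (27.9%) had the same sign in all 3 batches.

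No probe set passed the test. The count called was 0 of 22548 (0%), and the lowest adjusted p was 0.49 from limma, while 689 probe sets were higher (3.06%) and 702 lower (3.11%) at an unadjusted p under 0.05. The methods' t-test at its own unadjusted threshold gave 83 probe sets, and 0 after Benjamini-Hochberg adjustment. With batch 2 left out, limma called 21 probe sets (1 higher, 20 lower), and it called 0 with batch 1 or batch 3 left out. The probe sets at an unadjusted p under 0.05 then numbered 716 without batch 1 and 2362 without batch 3. No gene below is therefore described as changed. The values that follow belong to genes picked by size, by sign in the batches or by the smallest p of a list, and with 3 batches 0 of them had an adjusted p under 0.49 from limma.

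Dim probe sets made up most of the large differences. A mean difference of at least 2-fold with the same sign in all batches was found for 593 probe sets in the higher direction (2.63%) and 362 in the lower (1.61%). Of these 955 probe sets, 928 had a mean signal under 100. Among the 27 bright ones the balance turned, with 5 higher and 22 lower. The count of 955 became 1751 to 1817 when 1 batch was left out, so that only 2 batches had to share a sign. It became 48 when an offset of 21.2 was added to each signal before the log2 step. The 2 groups did not overlap for 2599 probe sets (11.5%), of which 1507 were higher and 1092 lower.

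**Figure D2:**
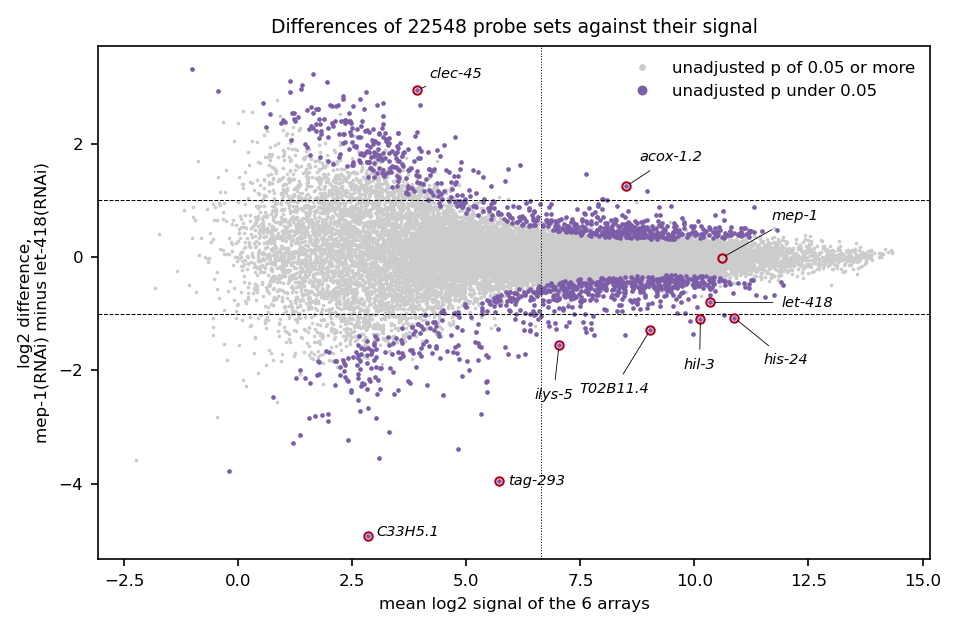
Log2 difference between *mep-1(RNAi)* and *let-418(RNAi)* (vertical axis) against the mean log2 signal of the 6 arrays (horizontal axis), 1 point per probe set. Dashed lines mark a 2-fold difference, the dotted line a signal of 100, and circled genes are named in the text. Differences fan out at low signal, where 928 of the 955 consistent 2-fold differences lie.

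Among bright genes that were at least 2-fold apart and had the same sign in all batches, 2 were higher and 13 lower on *mep-1(RNAi)*-labelled arrays. The 10 lower genes with the smallest p and both higher genes are given here, 12 in all, and in each of the 12 the 2 groups did not overlap. The smallest p belonged to *T02B11.4*, for which no function is given here. It had 777, 851 and 824 on *let-418(RNAi)*-labelled arrays and 369, 286 and 350 on those labelled *mep-1(RNAi)*. This was a difference of -1.29 (standard error 0.15, adjusted p = 0.49 from limma), 2.45-fold, and the *gfp(RNAi)* mean of 282 was near the lower group.

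The linker histone genes *his-24* and *hil-3* were in this set. Linker histones bind the DNA that enters and leaves a nucleosome and compact chromatin. *his-24*, which encodes an H1 variant, had 2793, 2708 and 2636 on *let-418(RNAi)*-labelled arrays and 1553, 1038 and 1332 on those labelled *mep-1(RNAi)*. Its difference was -1.07 (standard error 0.16, adjusted p = 0.50 from limma), and a second probe set had -1.02. The *gfp(RNAi)* mean was 2807, so here *let-418(RNAi)*-labelled arrays were near the control and those labelled *mep-1(RNAi)* were low. *hil-3*, another H1-like gene, had 1487, 1446 and 2052 against 767, 723 and 827, a difference of -1.09 (standard error 0.15, adjusted p = 0.50 from limma). That probe set is of the type whose probes may bind related transcripts, and the gene's other probe set, not of that type, had -1.13. On the first of these the *gfp(RNAi)* arrays had 1275, 977 and 715. Their mean of 989 was nearer to that of the *mep-1(RNAi)*-labelled arrays, unlike in *his-24*.

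The remaining lower genes were of varied function. *cex-1*, which encodes the calcium-binding protein calexcitin, had 393, 305 and 387 against 123, 111 and 194, a difference of -1.37 (standard error 0.19, adjusted p = 0.50 from limma). *ilys-5*, an invertebrate-type lysozyme gene, had 220, 194 and 263 against 101, 88.2 and 50.2, a difference of -1.55 (standard error 0.28, adjusted p = 0.53 from limma). Its other probe sets, whose probes may cross-hybridize, had -1.22 and -1.15, and the *gfp(RNAi)* mean was 1087, far above both groups. *Y38E10A.14* had 523, 708 and 525 against 277, 271 and 147, while its *gfp(RNAi)* mean was 55.6. Its difference was -1.38 (standard error 0.20, adjusted p = 0.50 from limma). In mean signal both groups thus lay below the control for *ilys-5* and above it for *Y38E10A.14*. For *cex-1* they lay below a control mean of 607.

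*oac-51*, an acyltransferase-like gene, had 326, 306 and 319 against 108, 124 and 214, and both of its probe sets had a difference of -1.16. Its control mean was 92.8, below that of both groups. *cyts-1* had 208, 212 and 249 against 79.1, 118.8 and 93.8. *F23F12.12* (-1.15) and *T12D8.5* (-1.01) completed the set, with spreads within the *let-418(RNAi)* group from 152 to 368 and from 177 to 324. Their within-group ranges were wide and their lowest *let-418(RNAi)* values came close to the highest *mep-1(RNAi)* values, 145 and 160. The probe set of *F23F12.12* is of the type whose probes may bind related transcripts. With batch 2 left out, 7 of the 10 lower genes passed the threshold, with adjusted p-values of 0.039 to 0.049 from limma. They were *T02B11.4*, *hil-3*, *cex-1*, *Y38E10A.14*, *cyts-1*, *ilys-5* and *F23F12.12*. The 10 had been picked on these same arrays, so this is not separate evidence. With batch 1 or batch 3 left out, 0 probe sets passed.

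In the other direction, *acox-1.2*, a peroxisomal acyl-CoA oxidase gene, had 207, 258 and 246 on *let-418(RNAi)*-labelled arrays and 801, 721 and 307 on those labelled *mep-1(RNAi)*. The difference was 1.25 (standard error 0.29, adjusted p = 0.65 from limma), and it was carried by batches 1 and 2 (1.95 and 1.48) more than by batch 3 (0.32). *clec-67*, a C-type lectin gene, had 174.2, 197 and 202 against 510, 429 and 254, a difference of 1.00 (standard error 0.24, adjusted p = 0.67 from limma), with the same falling-off in batch 3. The control means were 590 and 978, so both genes were nearer to control on *mep-1(RNAi)*-labelled arrays in batches 1 and 2.

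**Figure D3:**
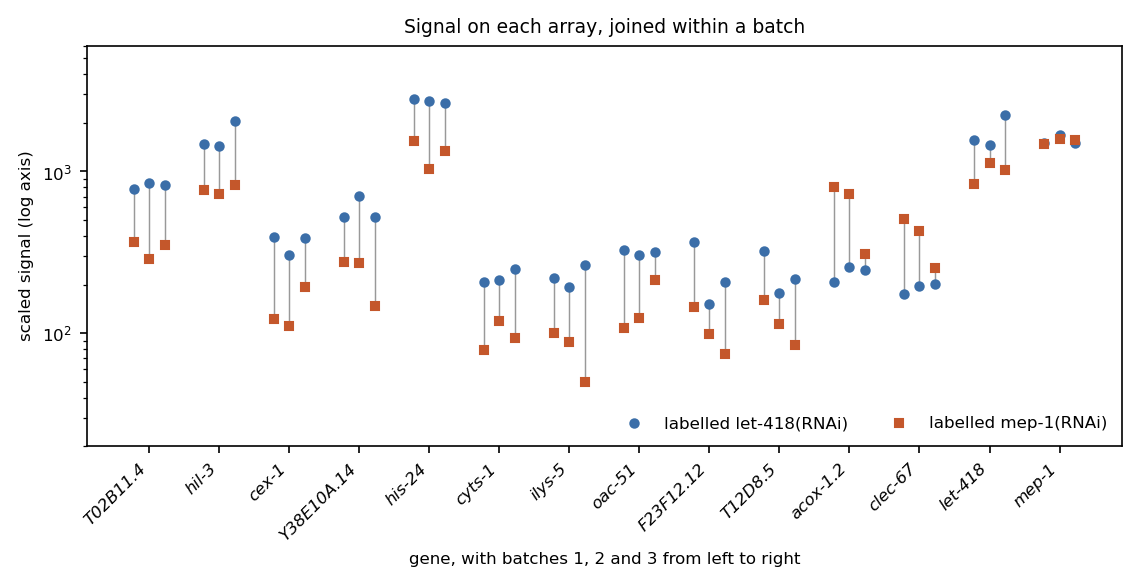
Scaled signal (vertical log axis) of the 12 bright genes with consistent differences of at least 2-fold, and of *let-418* and *mep-1*, on *let-418(RNAi)*-labelled arrays (circles) and *mep-1(RNAi)* (squares). Lines join the 2 arrays of a batch, with batches 1 to 3 from left to right. In the first 10 genes every square lies below every circle, in *acox-1.2* and *clec-67* above, and *mep-1* lies at 1478 to 1672 on all 6 arrays.

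The widest differences of all came from dim probe sets. *tag-293* had 178, 266 and 189 on *let-418(RNAi)*-labelled arrays and 22.2, 7.36 and 14.9 on those labelled *mep-1(RNAi)*. The difference was -3.95 (standard error 0.42, adjusted p = 0.49 from limma), and it was the smallest p of all probe sets. Each of the 3 *mep-1(RNAi)* signals was below the 25th percentile of its own array, so the size of the difference is only rough. On the *gfp(RNAi)* arrays it had 53.4, 86.9 and 62.2, between the 2 treatments. It was called with batch 2 left out (adjusted p = 0.002 from limma), and in a fit of all 9 arrays without the batch (adjusted p = 0.011 from limma), where it was the 1 probe set called. The other 4 of the 5 widest lower genes were dimmer: *C33H5.1* (-4.92), *K01D12.1* (-3.56), *F49C12.4* (-3.40) and *ZK1225.5* (-3.28), with mean signals on *let-418(RNAi)*-labelled arrays of 8.7 to 95.6.

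The 5 widest higher genes were *srbc-75* (3.32), *F16G10.14* (3.23), *C14C6.7* (3.09), *str-206* (3.04) and *clec-45* (2.95). *srbc-75* and *str-206* belong to the chemoreceptor families. The best measured of the 5, *clec-45*, had 11.16, 5.12 and 2.84 on *let-418(RNAi)*-labelled arrays and 40.6, 41.5 and 44.3 on those labelled *mep-1(RNAi)*. All these values lie below the median of the arrays (102 to 108 after scaling), where signals of the summary method used here vary strongly.

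Median differences over gene families were small, and most changed sign between batches. In all 55 lists were examined, of which 47 had at least 10 measured genes. Of the 47, 12 had a median above 0 in every batch and 4 a median below 0 in every batch, while 31 did not keep one sign. The medians ran from -0.31 to 0.27. As the background, the median over all 17118 genes was 0.03, 54.3% of them had a difference above 0, and 532 were higher and 557 lower at an unadjusted p under 0.05 (6.36%). In all 3 batches 2771 of the 17118 genes were higher and 2066 lower (28.3%). In 0 of the lists was a gene called.

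**Figure D4:**
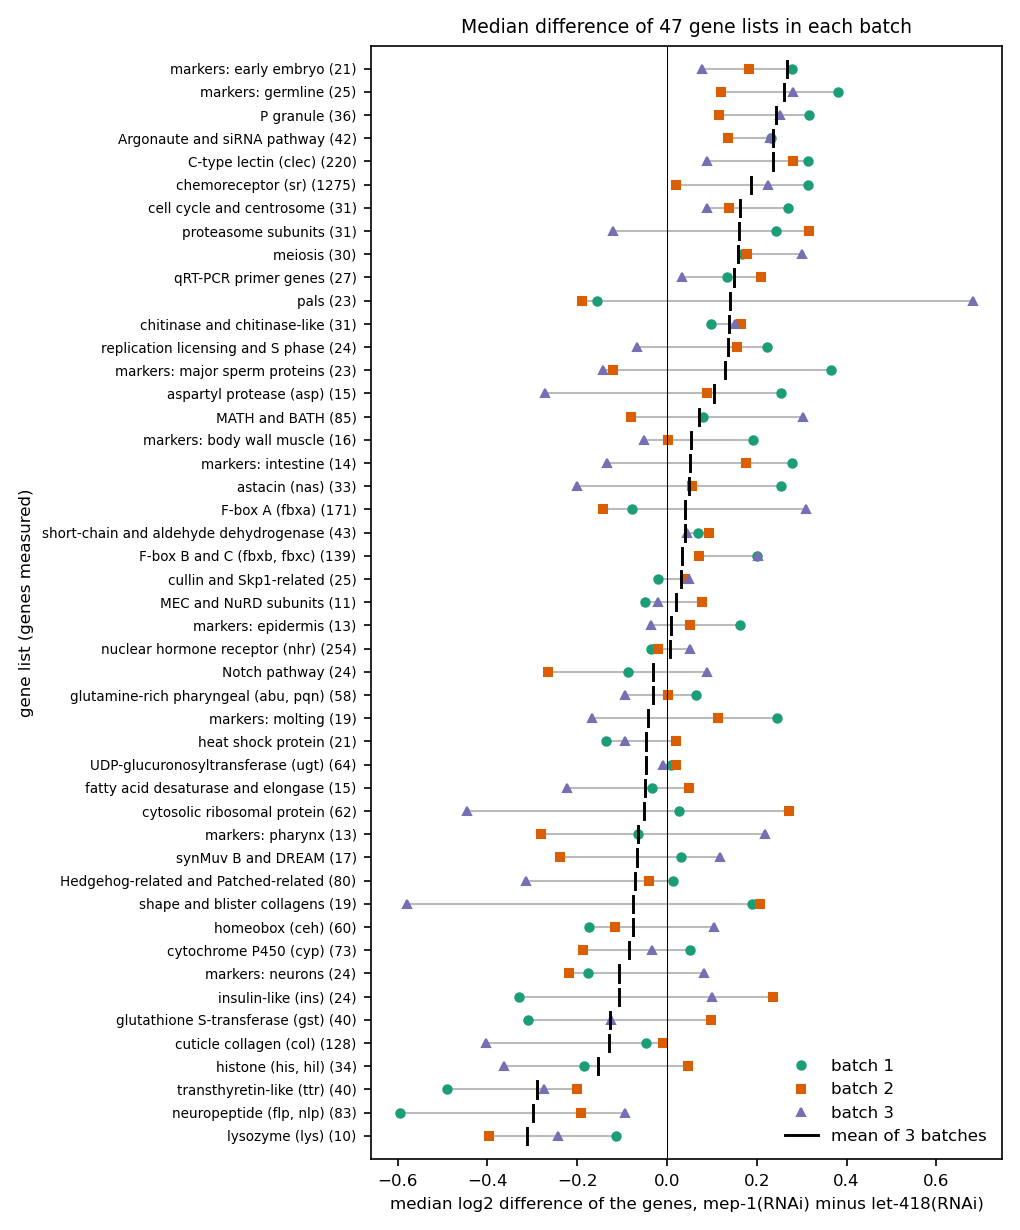
Median log2 difference of the genes of each of 47 lists (number of genes measured in brackets) in batches 1, 2 and 3 (coloured points) and of the mean over batches (black bars). Neuropeptide and transthyretin-like genes lie below 0 and germline lists above 0 in every batch, while *pals*, ribosomal protein and shape collagen genes change side with batch 3.

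Neuropeptide genes were lower almost throughout in the mean of the 3 batches, though fewer of them were lower in every batch. FLP peptides and many NLP peptides are short signalling peptides that neurons release from dense-core vesicles, though not every *nlp* gene is of this kind. Of 83 genes, 75 were lower on *mep-1(RNAi)*-labelled arrays, and of the 58 bright ones 58 were lower. In all 3 batches 30 of the 83 were lower and 1 higher (37.35%), and of the bright ones 24 were lower and 0 higher. The median was -0.30, with -0.59, -0.19 and -0.09 in the 3 batches, and without batch 1 it was -0.12. At an unadjusted p under 0.05 there were 14 lower genes and 1 higher. The *nlp* genes (58, median -0.32) and the *flp* genes (25, median -0.26) were alike in this.

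The neuropeptide signals also varied between batches of the same treatment. Their sum was 35920, 26360 and 33030 on *let-418(RNAi)*-labelled arrays and 23760, 22890 and 30610 on those labelled *mep-1(RNAi)*, so the groups overlapped, and the control arrays spanned 25950 to 38180. *nlp-18* had 887, 607 and 687 against 452, 402 and 590, a difference of -0.60 with no overlap (standard error 0.17, adjusted p = 0.71 from limma). *nlp-10* had 596, 439 and 624 against 299, 336 and 478, with overlap (difference -0.59). *nlp-50* (-0.73), read on a probe set whose probes may cross-hybridize, and *nlp-89* (-0.85) had the same direction in all batches.

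Markers of neurons in general lay nearer to equality. Of 24 genes for synaptic vesicle release, transmitters and sensory channels, 18 were lower and 6 higher, with a median of -0.11 and batch medians of -0.18, -0.22 and 0.08, and 0 had an unadjusted p under 0.05 from limma. Their sum was 20150 to 21660 on *let-418(RNAi)*-labelled arrays and 17560 to 21370 on those labelled *mep-1(RNAi)*. In RNA of whole larvae, fewer cells of a type and less RNA per cell cannot be told apart. The part of neuron number in the neuropeptide difference was not tested.

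Transthyretin-like genes, which encode small secreted proteins of nematodes, showed a like pattern. Of 40 genes 36 were lower, all 27 bright ones among them, with a median of -0.29 (-0.49, -0.20 and -0.28 in the 3 batches, and -0.19 without batch 1). In all 3 batches 15 were lower and 1 higher (40%). At an unadjusted p under 0.05, 7 were lower and 1 higher. *ttr-48* had 1532, 1172 and 1305 against 1023, 992 and 951, a difference of -0.43 with no overlap (standard error 0.14, adjusted p = 0.77 from limma). *ttr-17* had 1452, 751 and 1006 against 612, 551 and 792, with overlap. *ttr-20* (-0.61) was also lower, and the single exception at that p was *ttr-9* (2.41), whose signals were all under 17.

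**Figure D5:**
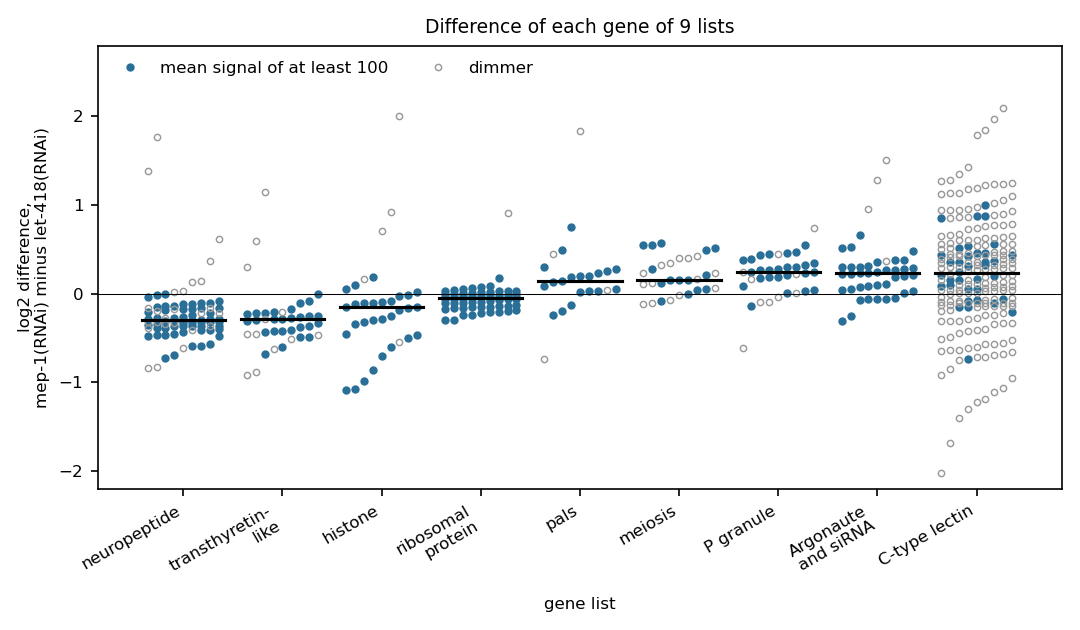
Log2 difference (vertical axis) of each gene in 9 lists, filled where the mean signal is at least 100 and open where it is lower, with black bars for the medians. The 6 genes beyond 2.2 are outside the axis. Bright neuropeptide (58) and transthyretin-like (27) genes all lie below 0, and the germline lists lie mostly above 0.

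The linker histones noted above belong to a list of 34 histone genes. Of these 26 were lower and 8 higher, with a median of -0.15 (-0.19, 0.05 and -0.36 in the 3 batches). The linker histone genes were set apart after their values were seen, so their figures are a description only. Of 9 linker histone genes 7 were lower and 5 of them at an unadjusted p under 0.05, with a median of -0.50 (-0.47, -0.18 and -0.69 in the 3 batches). Besides *his-24* and *hil-3* these included *hil-7*, with 1375, 1120 and 1245 against 710, 453 and 772, a difference of -0.98 (standard error 0.16, adjusted p = 0.50 from limma). *hil-1* had 218, 172 and 215 against 82.5, 105 and 157 (-0.86). The sum of the 9 was 8373, 7868 and 9225 on *let-418(RNAi)*-labelled arrays and 5471, 4777 and 4837 on those labelled *mep-1(RNAi)*, without overlap, while the control arrays had 7455, 6748 and 5562. Of the 25 other histone genes 19 were lower, with 4 lower and 1 higher at an unadjusted p under 0.05, a median of -0.15 and batch medians of -0.18, 0.13 and -0.25. The difference between the linker histones and the others was not tested.

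Germline genes ran the opposite way. P granules are RNA and protein bodies of germ cells, and 31 of 36 genes for their components were higher on *mep-1(RNAi)*-labelled arrays, with a median of 0.24 (0.32, 0.12 and 0.25 in the 3 batches) and 6 higher and 0 lower at an unadjusted p under 0.05. *pgl-1*, which encodes a P granule scaffold protein, had 472, 538 and 658 against 614, 781 and 722, a difference of 0.35 with overlap (standard error 0.15, adjusted p = 0.80 from limma). *deps-1*, needed for P granule assembly, had 545, 651 and 869 against 659, 992 and 1195 (0.45). *gld-3*, an RNA-binding regulator of germ cells, had 82.5, 90.6 and 100 against 111, 155 and 137 (0.55), without overlap. *cey-2*, a Y-box RNA-binding gene, had 0.46. Of the 36 genes, 13 were higher in all 3 batches and 1 lower (38.89%).

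Genes of the small RNA pathways were alike. Argonaute proteins bind small RNAs and, in the germline, silence genes with them. Of 42 Argonaute and siRNA pathway genes 35 were higher, with a median of 0.24 (0.23, 0.14 and 0.23 in the 3 batches, and 0.13 without batch 3) and 6 higher and 0 lower at an unadjusted p under 0.05. *ppw-2* had 924, 1273 and 1763 against 1713, 2322 and 2044, a difference of 0.66 with overlap (standard error 0.18, adjusted p = 0.71 from limma). *hrde-1*, the nuclear Argonaute of inherited silencing, had means of 106 ± 11.5 and 153 ± 20.8 (SD, n = 3 each), a difference of 0.52 without overlap. *wago-1* had 0.38.

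Meiosis genes added 24 higher of 30, with a median of 0.16 (0.17, 0.18 and 0.30 in the 3 batches, and 0.32 without batch 2) and 5 higher and 0 lower at an unadjusted p under 0.05. *rec-8*, the meiotic cohesin subunit, had 572, 678 and 680 against 885, 1132 and 823, a difference of 0.55 without overlap (standard error 0.15, adjusted p = 0.71 from limma). *msh-5*, a crossover factor, had 255, 298 and 287 against 358, 405 and 497 (0.58), also without overlap. *rad-51*, the recombinase that exchanges strands, had 606, 669 and 648 against 975, 854 and 878 (0.49). *syp-1*, of the synaptonemal complex, had 0.54, and in these 4 genes the direction was the same in every batch. Of the 30 genes, 10 were higher in all 3 batches and 1 lower (36.67%).

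The germline marker list gives the scale of these differences. Of its 25 genes, 22 were higher on *mep-1(RNAi)*-labelled arrays, with a median of 0.26 (0.38, 0.12 and 0.28 in the 3 batches). Their sum was 10640, 12210 and 12770 on *let-418(RNAi)*-labelled arrays and 14080, 15290 and 13650 on those labelled *mep-1(RNAi)*, without overlap, and 2223 to 2494 on the control arrays. Both treatments lay far above the control, and the gap between them was small beside that. The list shares genes with the P granule, siRNA and meiosis lists, so these lists are not separate evidence. Early embryonic markers had a median of 0.27 over 21 genes, which was 0.07 without batch 1, and their sums overlapped (3963 to 4940 and 4353 to 4641).

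Families of defence and detoxification were divided. Of 220 C-type lectin genes 146 were higher, with a median of 0.24 (0.31, 0.28 and 0.09 in the 3 batches, and 0.16 without batch 1) and 22 higher against 4 lower at an unadjusted p under 0.05. *clec-60* had 1835, 1651 and 2157 against 2874, 3374 and 4179, a difference of 0.88 without overlap (standard error 0.16, adjusted p = 0.53 from limma), while its control mean was 27.8. *clec-174* had 435, 415 and 480 against 847, 727 and 873 (0.88), and a control mean of 1985. *clec-17* ran the other way, with 394, 411 and 526 against 245, 267 and 280 (-0.74). With the offset before log2 the median of the family was 0.08, and 36 of its genes were bright.

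Lysozyme genes of the *lys* family were mostly lower, 7 of 10, with a median of -0.31 (-0.11, -0.40 and -0.24 in the 3 batches) and 3 lower at an unadjusted p under 0.05. *lys-7* had 956, 990 and 1056 against 451, 509 and 931, a difference of -0.74 without overlap (standard error 0.20, adjusted p = 0.71 from limma). *lys-4* had 939, 758 and 964 against 577, 501 and 782 (-0.53). In both genes batch 3 held the smallest gap.

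Detoxification enzymes had single genes in both directions, among them the close relatives *cyp-13A5* and *cyp-13A2*. Among 73 cytochrome P450 genes the median was -0.08, with 5 higher and 6 lower at an unadjusted p under 0.05. *cyp-13A5* had 517, 696 and 863 against 291, 356 and 470, a difference of -0.89 (standard error 0.14, adjusted p = 0.50 from limma). *cyp-13A2* had 447, 489 and 462 against 797, 787 and 752, a difference of 0.74 (standard error 0.13, adjusted p = 0.53 from limma). In *cyp-13A2* the 3 batches lay within a narrow range in each group. Among 40 glutathione S-transferase genes 28 were lower, with 5 lower and 0 higher at an unadjusted p under 0.05, and *gst-15* had 80.6 to 142 against 6.51 to 45.8 (-2.39). *ugt-29*, which encodes a UDP-glucuronosyltransferase, had 261, 304 and 274 against 133, 84.2 and 182 (-1.14).

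In cuticle and signalling families of the skin, batch 3 had the lowest medians. Of 128 *col* cuticle collagen genes 82 were lower, with a median of -0.13, and 17 lower against 2 higher at an unadjusted p under 0.05. Batch 3 carried the median (-0.40, against -0.05 and -0.01), and without it the median was -0.03. *col-141* had 386, 385 and 400 against 276, 244 and 231, a difference of -0.65 without overlap (standard error 0.15, adjusted p = 0.66 from limma), and *col-113* had 459, 484 and 546 against 339, 336 and 385 (-0.49). Of 80 Hedgehog-related and Patched-related genes, which in worms act in the skin and its cuticle, 49 were lower and 31 higher, with 9 lower and 0 higher at an unadjusted p under 0.05. Their median was -0.07, with 0.01, -0.04 and -0.31 in the 3 batches, and it turned to 0.05 without batch 3. *ptr-22* had 547, 594 and 574 against 228, 358 and 403 (-0.84), without overlap, and *grd-3* had 1245, 684 and 1572 against 476, 440 and 825 (-0.98), with overlap.

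In other families the batches disagreed. The *pals* genes, of which 19 of 23 were bright, had batch medians of -0.16, -0.19 and 0.68. Their sums were 16410, 14760 and 14790 on *let-418(RNAi)*-labelled arrays and 14480, 14100 and 21500 on those labelled *mep-1(RNAi)*, against 827 to 879 in the control, so that 1 array of 6 stood out within a family far above control in all of them. *pals-28* had 1021, 999 and 1264 against 1335, 1663 and 2759, a difference of 0.75 (standard error 0.18, adjusted p = 0.66 from limma). *cul-6*, a cullin gene of ubiquitin ligases, had 725, 733 and 991 against 850, 1085 and 1812 (0.55), again with its top value in batch 3. *skr-5*, a Skp1-related gene, had 921, 664 and 945 against 484, 456 and 828 (-0.55).

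Ribosomal protein genes had batch medians of 0.03, 0.27 and -0.45 over 62 genes, and 0 of them had an unadjusted p under 0.05 from limma. Shape and blister collagens had 0.19, 0.21 and -0.58, and proteasome subunits 0.24, 0.32 and -0.12. Of the 31 proteasome genes 29 had a mean difference above 0, though the direction in batch 3 was the other, and *rpn-1* had 1482, 2042 and 1868 against 2280, 2724 and 2267 (0.44). For these lists the difference between the 2 treatments was smaller than the spread of that difference over batches. Leaving out batch 3 turned the medians of the *pals* (-0.10), ribosomal protein (0.13) and shape collagen (0.21) genes to the other side of 0.

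Genes that the study had chosen for qRT-PCR gave no common direction. Of 29 listed, 27 were measured, 18 higher and 9 lower, with 5 higher and 4 lower at an unadjusted p under 0.05. Among the higher were *amt-4*, an ammonium transporter gene, with 169, 180 and 196 against 278, 384 and 242 (0.71), and *hpo-6*, with 985, 1162 and 1035 against 1329, 1300 and 2055 (0.53). Among the lower were *nmad-1*, with means of 1234 ± 79.3 and 881 ± 301 (SD, n = 3 each, -0.54) and a difference in batch 3 of -0.01, and *W07G4.5*, with 1832, 1276 and 1648 against 1250, 1240 and 1075 (-0.40). *nadk-2*, a NAD kinase gene, had -0.17 and *ego-1*, an RNA-dependent RNA polymerase gene of the germline, had 0.30. By qRT-PCR the study found *W07G4.5* and *ego-1*, among others, unaffected in either treatment, and proposes that they were false positives of its arrays. The study chose most of these genes on the same arrays, so the list is not independent of them.

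Single genes of developmental pathways completed the named set. *lag-2*, the gene of a Notch ligand, had 60.9, 77.1 and 63.5 against 49.2, 52.9 and 40.6, a difference of -0.50 (standard error 0.26, adjusted p = 0.82 from limma). *dos-1*, a secreted co-ligand of Notch, had 128, 103.5 and 127 against 71.6, 49.9 and 57.0 (-1.02). *cki-1*, an inhibitor of cyclin-dependent kinases, had 791, 663 and 660 against 542, 410 and 549 (-0.50), without overlap. *lin-28*, a timing gene of early larval stages, had 276, 133 and 129 against 136, 63.8 and 124 (-0.72), with overlap. *fbxa-38*, an F-box gene, was even within groups, with 114, 110 and 117 against 49.6, 50.0 and 53.7 (-1.15, adjusted p = 0.57 from limma), and *cht-1*, a chitinase gene, had 104.1, 163 and 127 against 59.1, 72.7 and 60.8 (-1.01).

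Markers of other tissues lay near equality. Batch medians were 0.28, 0.18 and -0.13 for intestine (14 genes), 0.19, 0.00 and -0.05 for body wall muscle (16 genes), 0.16, 0.05 and -0.04 for epidermis (13 genes) and -0.06, -0.28 and 0.22 for pharynx (13 genes). The summed signals of the 2 groups overlapped in all 4 lists. Molting genes had 0.25, 0.11 and -0.17 (19 genes). The part of tissue makeup in the differences of single genes was not tested.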

How the data were processed

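The authors hybridized biotin-labelled RNA to Affymetrix *C. elegans* arrays, read them with the AGCC software and deposited 1 MAS5 signal, a linear intensity, per probe set and array. MAS5 is also the tool named in the submitters' processing notes, with no version stated in the labels or methods. Their methods describe a global scaling, but trimmed means still differed between the deposited arrays, so the signals were scaled here to a trimmed mean of 318.5. The 9 columns of values were matched to arrays by label and 0 were left unmatched. Of 22548 probe sets, 20766 name 1 gene, 887 several and 895 none, and names came from the platform annotation.

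Log2 signals were fitted in limma 3.58.1 (R 4.3.3; lmFit, and eBayes with intensity trend) with the batch as a block, giving 2 residual degrees of freedom and about 5.49 prior ones. Tests were 2-sided with Benjamini-Hochberg adjustment. Tables and figures were made with Python 3.11.15, numpy 2.4.6, pandas 2.3.3 and matplotlib 3.10.9. The fit was also run on simulated data with noise drawn separately for each probe set. Such data cannot show how it handles differences that many probe sets share within a batch. The pairing comes from the batch numbers of the labels. Deviations from the group means correlated at 0.07, -0.03 and 0.03 between arrays of one batch and at -0.14 to 0.10 between the others.

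Named genes were first drawn from bright genes at least 2-fold apart with the same sign in 3 batches. Of these, the 10 lower and 10 higher genes with the smallest p were taken, though only 2 higher ones exist. Added were the 5 widest of each direction at any signal, the listed MEC and NuRD genes with their homologues, and qRT-PCR genes. *tag-293*, *lag-2* and up to 4 genes of smallest p per list completed the set. The comparison, lists and rules were chosen with earlier results of these data known. The number of arrays limits the precision, as do dim probe sets, since 25% of them had scaled signals under 18.8 to 23.0, depending on the array. Genome coordinates and sequences were not used here.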

Additional observations from a re-analysis of the deposited data

How the results depend on the processing

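The count of called probe sets stayed at 0 with the batch block removed ("no replicate block", 0 called, lowest adjusted p = 0.059 from limma), with all 9 arrays and the block, with quantile normalization, median centring, the offset, the dimmest probe sets left out (16911 kept), no intensity trend and no fold limit. It was 1 with all 9 arrays and no block, 11 with unscaled signals, 134 by an unadjusted limma p of at most 0.01 with at least 2-fold, 83 with the methods' t-test at that threshold, and 42 with its paired form. Both t-tests gave 0 after adjustment. Leaving out 1 batch gave 0 to 21 called, 716 to 2362 probe sets at an unadjusted p under 0.05, and 1751 to 1817 probe sets at least 2-fold apart and of one sign. With unscaled signals, 775 probe sets had an unadjusted p under 0.05, and the median of all probe sets was -0.185 in place of 0.03. Family medians moved by a like amount, so that the medians of the meiosis (-0.06), cell cycle (-0.05), proteasome (-0.05) and *pals* (-0.07) genes were below 0 in that setting though above the median of all probe sets. The share of higher among probe sets at an unadjusted p under 0.05 was 49.5%, 26.5% with unscaled signals and 59.0% without the trend. The 2-fold count was 48 with the offset and 146 among those 16911. The pairing within batches changed no call in the fit of the 6 arrays, while with all 9 arrays *tag-293* was called only without it (adjusted p = 0.011 against 0.14 from limma). *mep-1* turned from -0.02 to 0.01 without batch 2 and to 0.07 as the mean of its probe sets. The 12 bright genes with consistent 2-fold differences kept their direction in every setting run. They had been picked for one sign in all batches and a difference of at least 2-fold. Leaving out a batch could therefore not turn their direction, and the kept direction of these 12 genes is not separate evidence. Why probe sets were called with batch 2 left out, and not with another batch left out, was not tested.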

Other observations

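With batch 2 left out, the 21 probe sets called named 19 genes, which were chosen here after their values were seen. Since the choice left out batch 2, wider gaps in batches 1 and 3 than in batch 2 follow from it. *sod-5*, a superoxide dismutase gene, had 233, 75.8 and 163 on *let-418(RNAi)*-labelled arrays and 49.7, 46.1 and 35.3 on those labelled *mep-1(RNAi)*, a difference of -1.72 over the 3 batches (standard error 0.34, adjusted p = 0.57 from limma). *hsp-16.21*, a small heat shock protein gene, had differences of -2.90, -0.49 and -1.39 in batches 1 to 3 (-1.59). *djr-1.2*, a DJ-1-related gene, had 54.7, 3.30 and 57.6 against 2.46, 2.39 and 4.79 (-2.84).

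*lea-1*, which encodes a late embryogenesis abundant protein, a class known from desiccation tolerance, differed between its own probe sets. One had 1992, 1116 and 1858 against 619, 702 and 553 (-1.37, adjusted p = 0.50 from limma) and another -0.88, while the other 4 had 0.08, 0.08, 0.16 and 0.76. *T22F3.11* was the single gene higher among those called without batch 2, with 334, 348 and 314 against 576, 579 and 1212 on that probe set (1.16), and 31.5 to 39.4 on the control arrays.

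Of the 21 heat shock protein genes examined as a list 10 were higher and 11 lower, with a median of -0.05, and 3 were lower at an unadjusted p under 0.05.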
